A study of Homo sapiens with 4 samples.

Results

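The 10 genes described here encode the core of Polycomb repressive complex 2 (EZH1, EZH2, EED and SUZ12) and enzymes and partners of DNA methylation (UHRF1, DNMT1, DNMT3A, DNMT3B, TET1 and HELLS). They were chosen by name among the 60612 genes of the count table, and all 10 passed the filter on low counts. RNA sequencing was done on 4 libraries of IMR-32, a human neuroblastoma line in which MYCN is amplified. The shControl group (2 libraries) carried a control hairpin and the shNeuroD1 group (2 libraries) a hairpin against NeuroD1, a neurogenic transcription factor. Every library came from cells given doxycycline at 1 µg/mL for 48 h to induce the hairpin, so that the drug itself was common to both groups. The genotype label calls the shControl cells WT, and no label names the NeuroD1 hairpin that was sequenced or says that replicates were grown separately. The p-values below therefore measure only the spread between these libraries, which may be technical. In whole-culture RNA, fewer cells that express a gene and less of its RNA per cell cannot be told apart.

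Polycomb repressive complex 2 (PRC2) places methyl groups on lysine 27 of histone H3 (H3K27), a mark of silent developmental genes. EZH2 and EZH1 are its alternative catalytic subunits, EZH2 being typical of dividing cells and EZH1 of resting ones, and neither is active without EED and SUZ12. DNA methylation is copied after replication by DNMT1, which UHRF1 brings to hemimethylated CpG sites, whereas DNMT3A and DNMT3B methylate unmarked sites, HELLS remodels nucleosomes to open DNA to these enzymes, and TET1 oxidises 5-methylcytosine towards its removal. Neither H3K27 methylation nor DNA methylation was measured here, only the RNA of the enzymes.

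Promoter windows of 6 members are shown, those with an E2F-type motif, and of each member only the first listed window. The RNA of 5 of these genes fell together, and that of EZH1 rose. Windows of 300 bases, from 250 bases before a start site to 50 bases from it, were taken from RefSeq on GRCh38.p14, printed 5′ to 3′ on the gene's strand. Capitals mark the motif, letters bound by E2F factors at many replication genes, spelled here as TTTCCCGC, TTTCGCGC, TTTGCCGC or TTTGGCGC on either strand.
UHRF1, chr19:4909251-4909550, plus strand: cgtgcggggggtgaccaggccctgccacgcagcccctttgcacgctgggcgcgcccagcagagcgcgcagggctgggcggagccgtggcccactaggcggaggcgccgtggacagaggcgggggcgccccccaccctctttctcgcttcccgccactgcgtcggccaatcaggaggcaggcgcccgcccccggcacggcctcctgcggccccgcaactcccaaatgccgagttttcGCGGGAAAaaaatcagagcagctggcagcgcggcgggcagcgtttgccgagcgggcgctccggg
HELLS, chr10:94545538-94545837, plus strand: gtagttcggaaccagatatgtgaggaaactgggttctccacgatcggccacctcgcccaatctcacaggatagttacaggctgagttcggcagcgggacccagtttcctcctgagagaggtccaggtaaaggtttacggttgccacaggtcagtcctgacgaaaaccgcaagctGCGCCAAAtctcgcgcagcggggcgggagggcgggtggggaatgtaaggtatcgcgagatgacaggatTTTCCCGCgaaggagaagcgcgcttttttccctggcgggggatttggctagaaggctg
SUZ12, chr17:31936757-31937056, plus strand: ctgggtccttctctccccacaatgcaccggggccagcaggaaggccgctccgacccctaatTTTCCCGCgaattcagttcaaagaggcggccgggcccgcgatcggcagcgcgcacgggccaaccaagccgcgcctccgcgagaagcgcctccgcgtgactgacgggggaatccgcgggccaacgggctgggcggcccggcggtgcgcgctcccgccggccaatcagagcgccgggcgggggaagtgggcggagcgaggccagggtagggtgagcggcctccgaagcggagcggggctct
DNMT1, chr19:10194904-10195203, minus strand: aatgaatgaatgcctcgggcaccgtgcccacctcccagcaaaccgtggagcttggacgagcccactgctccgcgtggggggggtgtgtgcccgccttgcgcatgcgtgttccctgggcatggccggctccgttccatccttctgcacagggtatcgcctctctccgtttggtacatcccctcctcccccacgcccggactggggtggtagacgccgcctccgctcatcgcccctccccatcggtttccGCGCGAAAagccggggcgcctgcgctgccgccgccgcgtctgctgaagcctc
EZH2, chr7:148884242-148884541, minus strand: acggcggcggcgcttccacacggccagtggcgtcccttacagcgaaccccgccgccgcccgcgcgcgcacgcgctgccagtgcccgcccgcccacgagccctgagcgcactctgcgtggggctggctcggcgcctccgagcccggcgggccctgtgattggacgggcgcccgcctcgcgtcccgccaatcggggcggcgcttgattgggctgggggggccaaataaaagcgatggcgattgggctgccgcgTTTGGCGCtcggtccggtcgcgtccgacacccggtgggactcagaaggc
EZH1, chr17:42744991-42745290, minus strand: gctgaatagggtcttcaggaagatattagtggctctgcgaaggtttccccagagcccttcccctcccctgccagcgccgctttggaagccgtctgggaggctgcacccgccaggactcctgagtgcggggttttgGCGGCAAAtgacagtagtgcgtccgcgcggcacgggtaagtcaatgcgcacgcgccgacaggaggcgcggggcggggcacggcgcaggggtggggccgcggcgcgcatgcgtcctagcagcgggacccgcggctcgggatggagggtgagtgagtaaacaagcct

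All 10 members had at least 1 window in the RefSeq table, 20 windows in all. The E2F-type letters were found in 7 of the 20 windows, at 6 of the 10 genes, against 3.31% of all 35116 windows. The second of 3 UHRF1 windows (chr19:4909894-4910193) also held a match and is not printed. Positions count the start base as 0. In the printed windows the motif began at -14 in UHRF1, at -76 and -8 in HELLS and at -189 in SUZ12. It began at -2 in DNMT1, at 1 in EZH2 and at -115 in EZH1. EZH1 was thus among the genes with the motif although its RNA went the other way. No match was found in the windows of EED, DNMT3A, DNMT3B and TET1, although the RNA of EED and TET1 also fell. The only DNMT3B window (chr20:32779602-32779901) lay at an internal start of that gene. Its upstream start (chr20:32762385-32762699), the higher of the pair in every library, was not covered by a window. The E-box CAGATG, a form that NeuroD factors can bind, was present on either strand in 2 of the 20 windows (EED and the second of 3 UHRF1 windows) and in 14.7% of all windows. The E-box CAGCTG, a palindrome, was present in 3 of the 20 (UHRF1, DNMT3B and TET1) and in 17.9% of all, and the CCAAT box in 9 of the 20 and in 34.6% of all. None of these motifs is contained in another. A match is a description of letters in these windows, and no binding was examined. Because the members were chosen with earlier results of these data known, these motif counts are no test.

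NEUROD1 RNA was examined first as a check of the labels. It measured 418.9 and 414.5 CPM (counts scaled to library size with TMM factors) in shControl and 63.7 and 58.2 CPM in shNeuroD1, which is 14.6% of the shControl mean. Total counts ran from 14665210 to 16482463 per library, and a member held between 307 and 4803 counts. The mitochondrial share of counts lay between 4.37% and 4.59% in the shControl libraries and between 5.39% and 5.51% in the shNeuroD1 libraries, and the part of this difference in the results below was not tested. HAND2 and GATA3, which mark adrenergic neuroblastoma, each exceeded 143 CPM in every library, whereas TH and DBH stayed under 6 CPM. The 3 blood markers summed to at most 0.263 CPM, with CD3E and HBB at 0. SOX10, the defining factor of Schwann cells, measured 0.543 and 1.07 CPM in shControl and 0.986 and 0.788 CPM in shNeuroD1. The 6 fibroblast markers, with PRRX1 at 0, summed to 173.2 to 178.4 CPM in shControl and 113.9 to 118.9 CPM in shNeuroD1, mostly TWIST1 and COL1A1, and of the 4 tested 2 were lower and 2 higher. Their part in the results was not tested.

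Of the 10 members, 7 were lower in shNeuroD1 (EZH2, EED, SUZ12, UHRF1, DNMT1, TET1 and HELLS) and 2 were higher (EZH1 and DNMT3A) at an adjusted p under 0.05 in edgeR's quasi-likelihood test. Over all 17537 genes tested, 28.2% were lower and 26.8% higher by the same rule. UHRF1 and HELLS were the 2 members that also fell by more than 1 on the log2 scale, as did 5.14% of all genes, and 0 members rose by more than 1, against 8.79% of all genes. The member median log2 fold change (shNeuroD1 minus shControl) was -0.65, and the median over all tested genes was 0.0084. Because the members were picked with earlier results of these data known, the counts describe these 10 genes and are no test of the group.

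**Figure D1:**
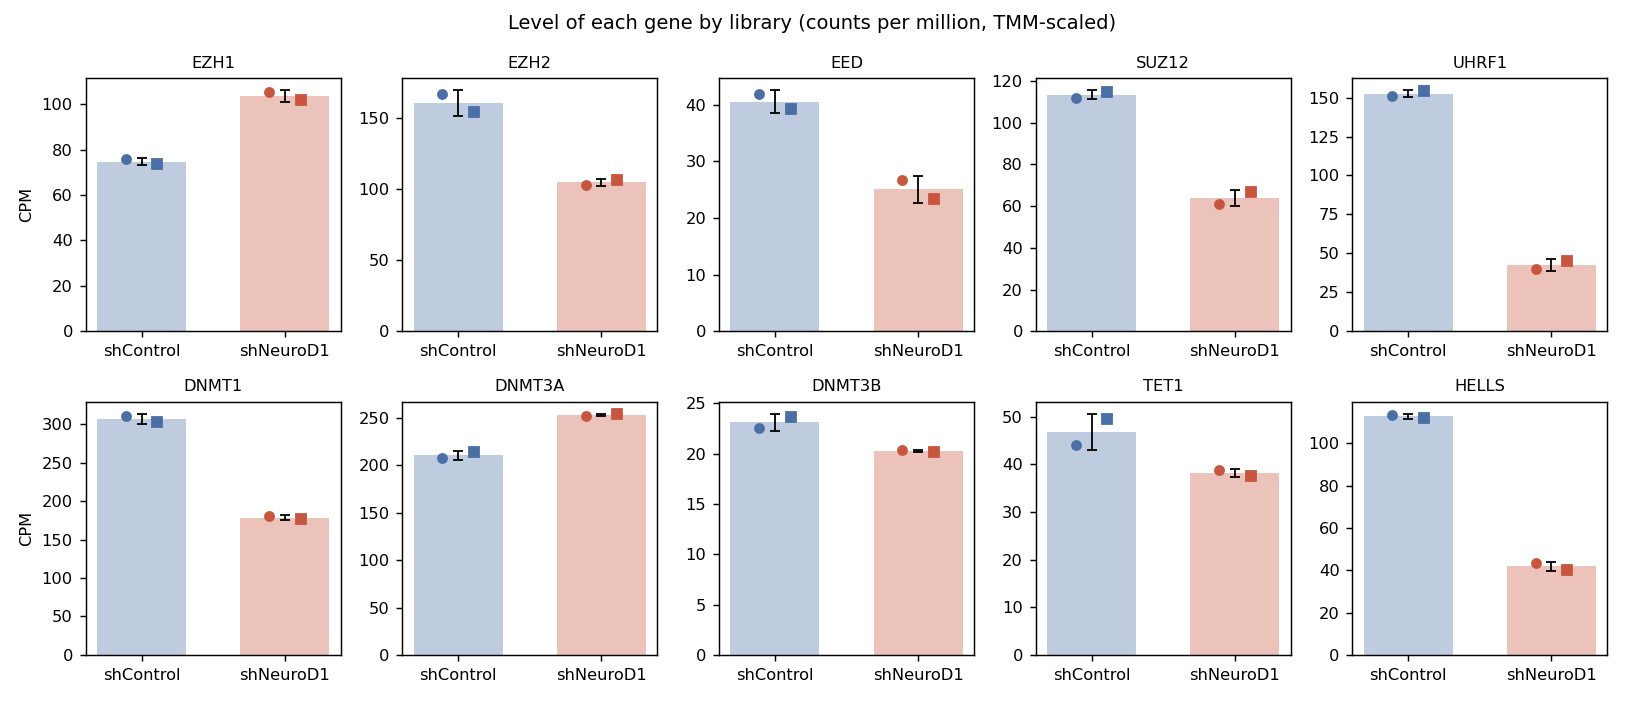
Level of each of the 10 genes in CPM (vertical axes, starting at 0) in shControl (blue) and shNeuroD1 (red); points are the 2 libraries, bars the mean and error bars the SD (n = 2). DNMT3B runs from 22.5 to 23.7 CPM in shControl and from 20.2 to 20.3 CPM in shNeuroD1, and it did not pass the test although its groups do not overlap.

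Among the PRC2 genes, both shared subunits and EZH2 fell while EZH1 rose. EZH2 (ENSG00000106462, GRCh38 chr7:148807383-148884321, minus strand) measured 166.9 and 154.4 CPM in shControl and 103.1 and 106.7 CPM in shNeuroD1. Both shNeuroD1 libraries lay below both controls, and the mean fell from 160.7 ± 8.83 to 104.9 ± 2.58 CPM (SD, n = 2 each), to 65.3% of control. The log2 fold change was -0.61 (SE 0.0507, adjusted p = 4.6e-12). EZH1 (ENSG00000108799, chr17:42700275-42745049, minus strand) went from 76.0 and 73.6 CPM to 105.4 and 101.7 CPM, with every shNeuroD1 library above every control. Its rise to 138.4% of control was 0.47 on the log2 scale (SE 0.0541, adjusted p = 7.0e-09).

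SUZ12, the scaffold of the complex (ENSG00000178691, chr17:31937018-32001045, plus strand), measured 111.8 and 114.9 CPM in shControl and 61.2 and 66.7 CPM in shNeuroD1. This was the largest fall of the 4 core genes, to 56.4% of control (log2 fold change -0.83, SE 0.0562, adjusted p = 4.4e-14). EED, which binds methylated H3K27 and stimulates the enzyme (ENSG00000074266, chr11:86244544-86278813, plus strand), measured 41.9 and 39.2 CPM in shControl and 26.8 and 23.3 CPM in shNeuroD1. It fell to 61.7% of control (log2 fold change -0.69, SE 0.0833, adjusted p = 1.6e-08). SUZ12 has a transcribed copy, SUZ12P1, which held 285 and 380 counts in the control libraries and 328 and 310 after knockdown, so how reads were divided between the copies is uncertain. EED shares 66 exonic bases with MIR6755 (0 counts in each library).

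In the maintenance branch of DNA methylation, UHRF1 fell more than the enzyme it recruits. UHRF1 (ENSG00000276043, chr19:4903080-4962154, plus strand) measured 151.2 and 154.0 CPM in shControl and 39.6 and 45.1 CPM in shNeuroD1. With a mean of 152.6 ± 1.99 against 42.4 ± 3.87 CPM (SD, n = 2 each), it stood at 27.8% of control, and its log2 fold change of -1.85 (SE 0.0592, adjusted p = 1.5e-22) was the largest of the 10. Only 1.39% of all tested genes had a lower fold change. DNMT1 (ENSG00000130816, chr19:10133345-10231286, minus strand) had the highest CPM of the members in shControl, at 311.4 and 302.5 CPM, and measured 180.7 and 176.3 CPM in shNeuroD1. It fell to 58.1% of control (log2 fold change -0.78, SE 0.0438, adjusted p = 3.2e-16). DNMT1 shares 83 exonic bases, 0.85% of its exons, with S1PR2 on the same strand. S1PR2 itself held between 62 and 90 counts in a library, against at least 2684 for DNMT1.

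HELLS, the remodeller (ENSG00000119969, chr10:94501434-94613905, plus strand), was next to UHRF1 in the size of its fall. It measured 113.4 and 112.0 CPM in shControl and 43.5 and 40.2 CPM in shNeuroD1, or 37.1% of control. The log2 fold change was -1.43 (SE 0.0594, adjusted p = 1.4e-19), and 2.50% of tested genes had a lower one. AL138759.1, annotated over 438 exonic bases of HELLS, held at most 8 counts in a library.

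Neither of the de novo methyltransferases passed the test as lower. DNMT3A (ENSG00000119772, chr2:25227855-25342590, minus strand) measured 207.3 and 213.7 CPM in shControl and 252.2 and 253.7 CPM in shNeuroD1. The groups did not overlap, and the rise to 120.2% of control was 0.26 on the log2 scale (SE 0.0434, adjusted p = 4.6e-06). DNMT3B (ENSG00000088305, chr20:32762385-32809356, plus strand) measured 22.5 and 23.7 CPM in shControl and 20.3 and 20.2 CPM in shNeuroD1. Both shNeuroD1 libraries lay below both controls, but its log2 fold change of -0.19 (SE 0.0951, adjusted p = 0.088) did not pass the test. DNMT3B was also the member with the fewest counts, 307 to 376 per library.

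TET1, the one demethylating enzyme among the members (ENSG00000138336, chr10:68560656-68694482, plus strand), measured 44.1 and 49.4 CPM in shControl and 38.8 and 37.6 CPM in shNeuroD1. It fell to 81.7% of control (log2 fold change -0.29, SE 0.0732, adjusted p = 0.0010). The 2 shControl libraries differed by more than the 2 shNeuroD1 libraries, and without shControl replicate 2 the fold change was -0.21 with an adjusted p of 0.075.

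**Figure D2:**
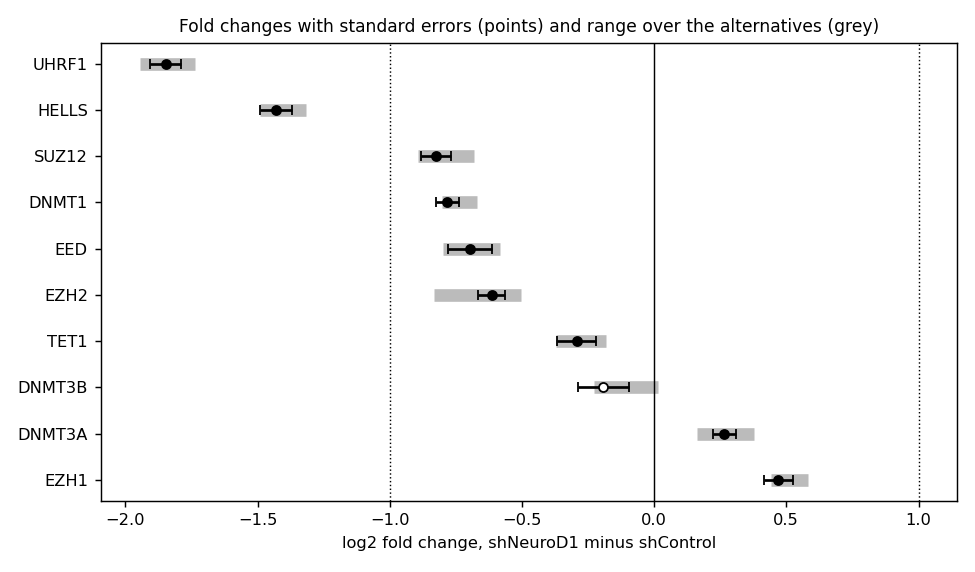
Log2 fold change of each gene (horizontal axis, shNeuroD1 minus shControl) with its standard error; filled points passed an adjusted p of 0.05 and the open point (DNMT3B) did not, dotted lines mark a change of 1, and grey bars span the other ways of fitting the data. UHRF1 at -1.85 and HELLS at -1.43 stand beyond the line at -1, and the grey bar of DNMT3B reaches across 0, to 0.015.

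Compared per length (CPM per kilobase of annotated exon), the order of the members differed between the groups. In shControl the levels per kilobase were 35.5 ± 1.95 for EZH2, 31.3 ± 0.646 for DNMT1 and 29.7 ± 0.387 for UHRF1 (SD, n = 2 each), followed by DNMT3A at 17.5 ± 0.376 and SUZ12 at 17.3 ± 0.330. HELLS at 11.1 ± 0.102 and EZH1 at 10.7 ± 0.240 came next, and EED at 5.78 ± 0.278, TET1 at 5.04 ± 0.406 and DNMT3B at 4.99 ± 0.176 were lowest. The libraries of DNMT3A and SUZ12 overlapped, as did those of TET1 and DNMT3B, and the other neighbours in this order did not overlap. In shNeuroD1 EZH2 was still first at 23.2 ± 0.570, but DNMT3A at 21.0 ± 0.0862 now stood above DNMT1 at 18.2 ± 0.321, and EZH1 at 14.8 ± 0.369 above SUZ12 at 9.76 ± 0.589 and UHRF1 at 8.24 ± 0.753. DNMT3B at 4.37 ± 0.0230, HELLS at 4.12 ± 0.227, TET1 at 4.11 ± 0.0978 and EED at 3.57 ± 0.347 were lowest. Only HELLS and TET1 overlapped among the neighbours of this second order. The lengths count the exons of every annotated isoform together, so a gene with long rarely used exons is placed too low. The transcript starts described below give another order for some of these genes.

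Ratios of these per-length levels within a library show the shift between alternative enzymes. Their size depends on the annotated lengths, and the transcript starts below place EZH1 above EZH2 in shNeuroD1. The EZH2 to EZH1 ratio stood at 3.39 and 3.24 in the control libraries and at 1.51 and 1.62 after knockdown. EZH1 thereby made up 22.8% and 23.6% of the summed EZH1 and EZH2 level in shControl and 39.8% and 38.2% in shNeuroD1, while that sum itself went from 47.8 and 44.7 to 37.9 and 38.2 CPM per kilobase. DNMT3B to DNMT3A stood at 0.282 and 0.288 against 0.209 and 0.206. The EZH1 share, its sum and 2 further ratios were chosen after the values were seen. DNMT1 to DNMT3A went from 1.84 and 1.74 in the controls to 0.879 and 0.853 after knockdown, and UHRF1 to DNMT1 from 0.924 and 0.969 to 0.418 and 0.487. The groups did not overlap for any of the 4 ratios. No test was made on them, since the smallest two-sided p that an exact permutation of 2 against 2 libraries allows is 0.333.

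**Figure D3:**
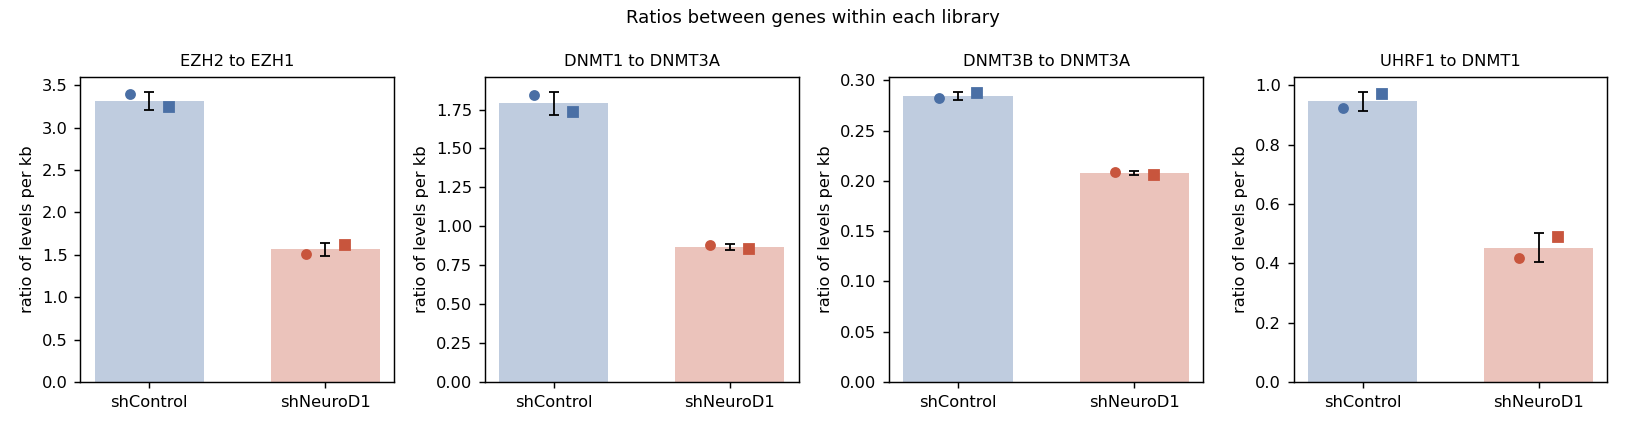
Ratio of the levels per kilobase of 2 genes in each library (vertical axes from 0), with the mean (bar) and SD (error bar, n = 2) of shControl in blue and shNeuroD1 in red. EZH2 to EZH1 goes from 3.39 and 3.24 to 1.51 and 1.62, and DNMT1 to DNMT3A passes from above 1 to below 1.

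The transcript tables gave the same genes by start site, as FPKM (fragments scaled for transcript length and library size). They listed 24 starts of members that reached 0.5 FPKM in a library, and the groups did not overlap at 12 of them, near the 43.3% found over the 23393 such starts of all genes. At the main EZH2 start (chr7:148884164-148884283) the level was 23.2 and 22.8 FPKM in shControl and 12.9 and 12.9 FPKM in shNeuroD1. The main EZH1 start (chr17:42745011-42745040) gave 10.9 and 8.40 against 15.2 and 13.6 FPKM, and that of SUZ12 (chr17:31937007-31937520) gave 16.4 and 18.1 against 9.68 and 11.0 FPKM. The levels at these starts moved in the direction of the counts. Their order was not that of the levels per kilobase. In shNeuroD1 the main EZH1 start lay above the main EZH2 start in both libraries, so which gene was higher after knockdown depends on the measure. In shControl the upstream UHRF1 start, at 35.9 and 35.4 FPKM, lay above the main EZH2 start.

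UHRF1 had a pair of starts, which lie 5′ of different first exons. The upstream start (chr19:4909430-4909655), whose first base lies inside the printed window, gave 35.9 and 35.4 FPKM in shControl and 8.84 and 6.74 FPKM in shNeuroD1. The downstream start (chr19:4910146-4910246) gave 3.79 and 0.00088 against 1.07 and 3.52 FPKM, so its groups overlapped and its replicates differed widely. HELLS had 2 first exons with the same first base that end at different positions. The shorter (chr10:94545788-94545907) gave 10.8 and 7.01 against 1.34 and 2.77 FPKM, and the longer (chr10:94545788-94545952) gave 3.34 and 9.86 against 3.45 and 3.49 FPKM. DNMT1, at its main start (chr19:10194820-10194934), gave 28.9 and 23.7 against 17.9 and 16.0 FPKM, and EED (chr11:86244753-86245343) gave 4.47 and 4.97 against 1.99 and 1.93 FPKM. DNMT1, EED and TET1 are listed there under a neighbouring gene of a merged locus, and their starts were found by position and strand. At the first start of TET1 (chr10:68560310-68560742) the values were 2.66 and 2.15 FPKM against 2.24 and 2.09 FPKM, which overlapped.

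For DNMT3A and DNMT3B the tables separate starts that give different proteins. DNMT3A is made in a full-length form and in a short form, which lacks the N-terminal part and starts at an internal promoter. The short-form start (chr2:25252194-25252311) gave 7.49 and 4.24 FPKM in shControl and 17.4 and 4.16 FPKM in shNeuroD1. The start used by the full-length transcript DNMT3A-202 (chr2:25341826-25341925) gave 4.22 and 9.92 against 1.52 and 13.4 FPKM. Another start (chr2:25249618-25249703), that of DNMT3A-209, gave 3.28 and 2.07 against 0.098 and 0.624 FPKM, without overlap. The start of DNMT3A-201 (chr2:25342430-25342590) gave 1.91 and 0.291 against 0.117 and 0.456 FPKM, with overlap. Of the FPKM at all these DNMT3A starts, the short-form start took 44.3% and 25.7% in shControl and 90.9% and 22.3% in shNeuroD1. Which form contributed to the rise of DNMT3A cannot be read from these values. In DNMT3B the replicates were closer. The upstream start (chr20:32762385-32762699) gave 3.16 and 2.57 against 1.66 and 2.02 FPKM. An internal start (chr20:32779852-32780145), that of transcript DNMT3B-201, was unlisted in shControl replicate 1 and at 0.095 FPKM in shControl replicate 2, and reached 1.07 and 1.13 FPKM in shNeuroD1. Its share of DNMT3B start FPKM was 3.58% in the shControl library that listed it and 39.1% and 35.9% in shNeuroD1. The groups did not overlap at either DNMT3B start, and these low levels were not tested.

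**Figure D4:**
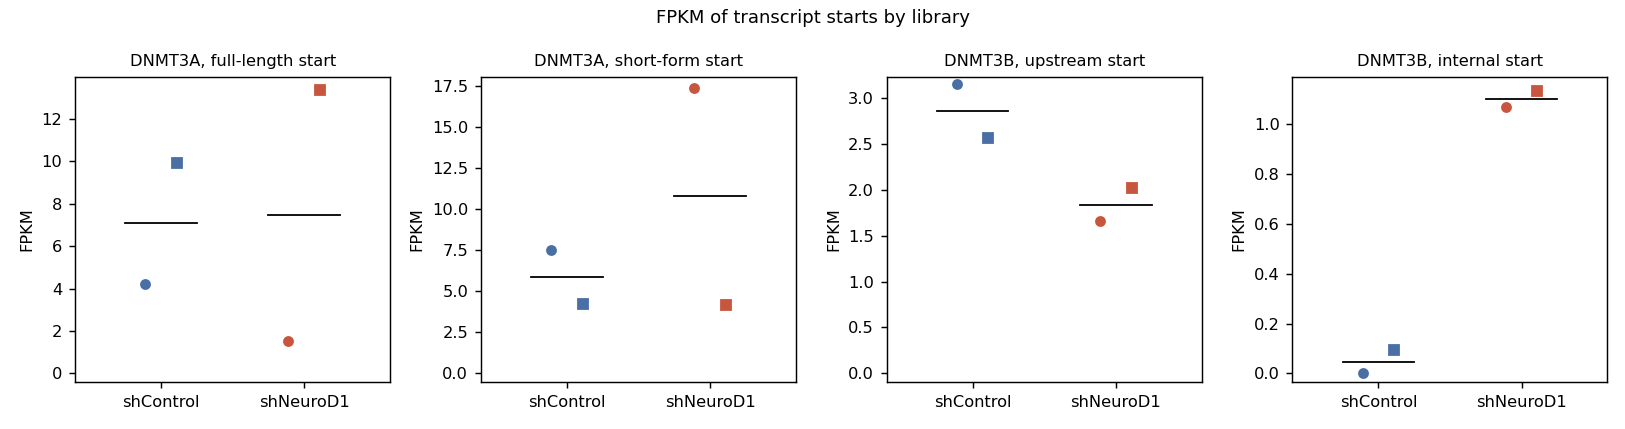
FPKM at 2 starts of DNMT3A and 2 of DNMT3B (vertical axes) in each library of shControl (blue) and shNeuroD1 (red); circles are replicate 1, squares replicate 2, lines the mean, and the unlisted value of the internal DNMT3B start is drawn at 0. The 2 DNMT3A starts shown range from 1.52 to 17.4 FPKM within shNeuroD1, whereas the internal DNMT3B start sits at 1.07 and 1.13 FPKM in shNeuroD1 and at or below 0.095 FPKM in shControl.

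Exon use was compared as the percent of FPKM that includes a skipped exon, for the 23 member exons with at least 1 FPKM in each library. The groups did not overlap at 3 of the 23, against 27.3% of 11738 such exons over all genes. An EZH2 exon of 82 bases with no coding sequence in GENCODE (chr7:148818978-148819059) was included at 10.5% and 7.39% in shControl and at 0.254% and 2.16% in shNeuroD1. The others were a 70-base coding exon of DNMT3A (chr2:25236936-25237005), at 97.3% and 99.5% against 89.2% and 97.1%, and a 90-base exon of TET1 that matches no GENCODE exon (chr10:68665808-68665897), at 25.9% and 25.8% against 0% and 22.7%. The 117-base coding exon of EZH2 (chr7:148832634-148832750) was included at 85.1% and 90.5% against 89.0% and 88.3%, with overlap. SUZ12 had a 69-base coding exon (chr17:31947617-31947685) at 82.1% and 84.5% against 87.4% and 79.4%. For DNMT1 the 48-base coding exon (chr19:10180187-10180234) stood at 34.3% and 29.8% against 56.0% and 27.1%. In DNMT3B the 126-base coding exon (chr20:32786502-32786627) ran from 41.6% to 82.4% over the 4 libraries. In these exons of SUZ12, DNMT1 and DNMT3B the 2 shNeuroD1 libraries lay farther apart than the group means did.

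The remaining genes of both pathways were described by lists written with earlier results of these data known. Over the 10 lists 106 of 155 genes were tested, of which edgeR called 54 lower and 20 higher at the same adjusted p (41 and 30 when libraries were scaled by size alone), with a median log2 fold change of -0.16. Among 10 tested genes listed as PRC2 accessory subunits, 7 were lower and 1 higher (median -0.26). The list also holds the histone-binding subunits RBBP4 and RBBP7. PHF19, a Polycomb-like protein that binds H3K36 methylation, fell from 58.6 and 53.1 to 29.6 and 29.6 CPM (log2 fold change -0.91, SE 0.0736, adjusted p = 2.7e-12). RBBP7, a histone-binding subunit, rose by 0.12 on the log2 scale (adjusted p = 0.033). Of 25 subunits of Polycomb repressive complex 1, which ubiquitinates histone H2A, 13 were lower and 3 higher (median -0.20). PCGF6, part of a variant complex, fell from 28.6 and 28.0 to 16.2 and 14.1 CPM (-0.90), and CBX8, a reader of H3K27 methylation, rose from 58.5 and 60.0 to 93.0 and 92.4 CPM (0.65). Of 8 genes that remove Polycomb marks, 3 were lower and 1 higher (median -0.11). When libraries were scaled by size alone their median was 0.0048, while that of all tested genes moved from 0.0084 to 0.12. KDM6B, an H3K27 demethylase, rose from 62.6 and 60.3 to 111.9 and 110.5 CPM (0.86, adjusted p = 9.8e-15), and USP16, a histone H2A deubiquitinase, fell by 0.17 (adjusted p = 0.022).

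On the side of DNA methylation, 7 of 9 tested cofactors were lower and 0 higher (median -0.47). PCNA, the replication clamp that also binds DNMT1, fell from 307.5 and 284.0 to 108.6 and 116.8 CPM (-1.39, SE 0.0496, adjusted p = 2.8e-21). LIG1, the ligase of replicating DNA, fell from 78.8 and 81.9 to 41.1 and 38.9 CPM (-1.01, adjusted p = 5.6e-15). Of 9 genes of DNA demethylation, 6 were lower and 1 higher (median -0.29). TDG, the glycosylase that removes oxidised methylcytosine, fell from 197.3 and 197.0 to 109.9 and 116.3 CPM (-0.80), and CXXC4, a CpG-binding protein related to TET2, rose from 6.11 and 5.92 to 12.1 and 10.6 CPM (0.91). Methyl-CpG readers were lower in 4 and higher in 1 of 7 (median -0.28), with ZBTB38 at -0.57 and ZBTB4 at 0.47. In the cycle of S-adenosylmethionine, the methyl donor, 5 of 8 were lower and 0 higher (median -0.18). AHCYL1, related to the hydrolase AHCY, fell from 172.9 and 173.5 to 92.2 and 88.6 CPM (-0.94, adjusted p = 5.6e-17), whereas AHCY itself, at 262.8 and 259.8 against 276.1 and 274.0 CPM, did not pass the test. AHCY was named after its values were seen.

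Genes that these enzymes are known to keep silent were then examined. Of 20 germline genes with methylated promoters, such as DAZL and DDX4, 3 had enough counts to be tested, 0 passed in either direction, and 10 had no count in any library. A count of 0 allows a level of up to 0.189 to 0.204 CPM depending on the library (3 counts, counting error only). Expression of the 10 genes without a count was thus not detectable at this depth in either group. Of 36 developmental regulators under Polycomb, 25 were too low to test and 14 had no count in any library. Among the 11 tested, 5 were lower and 5 higher. LHX9, a LIM homeobox factor, fell from 58.1 and 59.4 to 12.7 and 9.92 CPM (-2.38, SE 0.0924, adjusted p = 2.5e-20), and LHX2 fell from 1.76 and 2.46 to 0.855 and 1.18 CPM (-1.05, adjusted p = 0.016). NKX2-5, a cardiac homeobox factor, rose from 1.15 and 0.693 to 6.70 and 5.45 CPM (2.72, adjusted p = 9.0e-10). FOXC1, a forkhead factor, rose from 12.0 and 11.7 to 25.1 and 26.7 CPM (1.13), and GSC, a homeobox factor of the organizer, rose from 0.814 and 1.20 to 2.96 and 2.82 CPM (1.51).

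Imprinted genes, expressed from 1 parental allele and marked by DNA methylation that differs between the alleles, moved in both directions. Of 16 tested, 4 were lower and 8 higher (median 0.48), against 28.2% lower and 26.8% higher over all tested genes. MEG3, a maternally expressed long RNA, rose from 105.4 and 111.0 to 572.0 and 593.1 CPM (2.43, SE 0.0460, adjusted p = 2.0e-28). DLK1, the paternally expressed Notch ligand of the same imprinted region, rose from 2.10 and 2.39 to 14.8 and 13.3 CPM (2.64, adjusted p = 4.8e-14), and DIRAS3 rose by 1.16. MEST fell from 71.7 and 69.1 to 21.3 and 17.5 CPM (-1.86), NNAT by 1.03 and GRB10 by 1.03 on the log2 scale. Allele of origin was not examined.

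**Figure D5:**
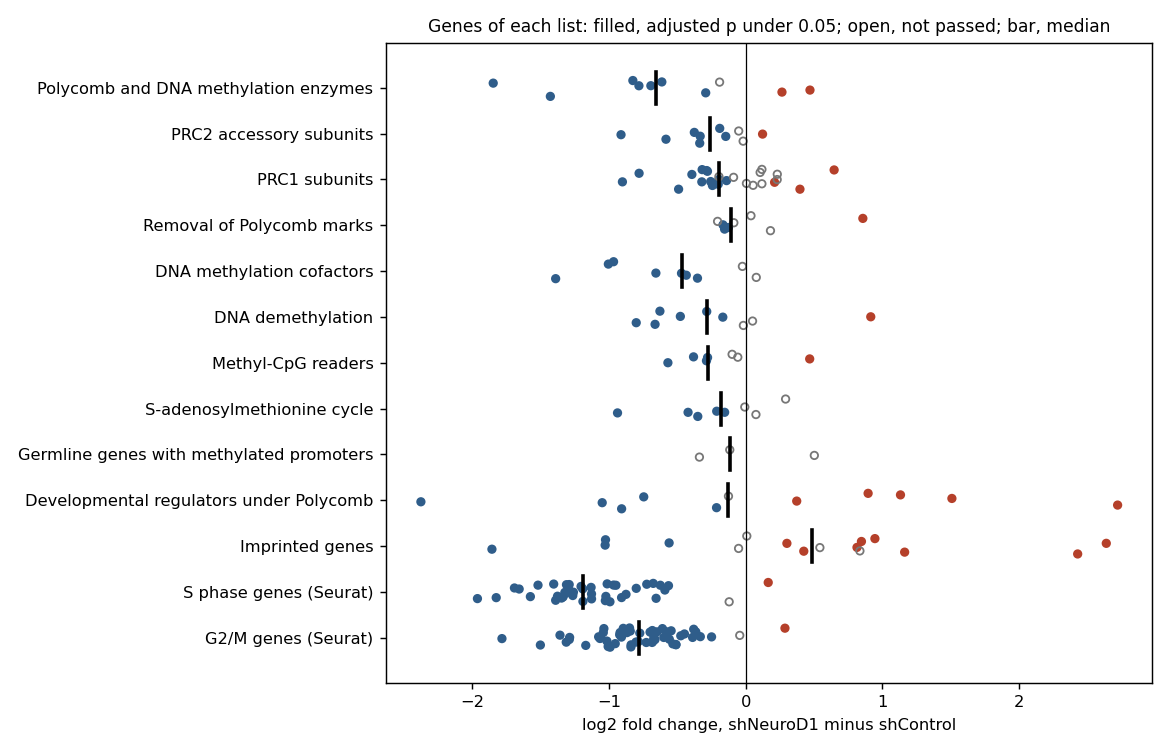
Log2 fold changes (horizontal axis, shNeuroD1 minus shControl) of the tested genes of each list, filled at an adjusted p under 0.05 and blue where lower or red where higher, open where not passed, with the median as a bar. The 10 Polycomb and DNA methylation enzymes have a median of -0.65, between those of the context lists and the -1.19 of the S phase genes.

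UHRF1 and HELLS both belong to a published list of S phase genes distributed with Seurat, which marks cells that copy their DNA. Of the 41 other genes of that list, 39 were lower and 1 higher, with a median log2 fold change of -1.19, and their summed level went from 5652 and 5724 CPM in shControl to 2646 and 2662 CPM in shNeuroD1. Of 54 G2/M genes of the same source, 52 were lower and 1 higher (median -0.78). UHRF1 at -1.85 and HELLS at -1.43 were below the S phase median, and DNMT1 at -0.78, SUZ12 at -0.83, EED at -0.69 and EZH2 at -0.61 were above it. The part of cell cycle genes in the member changes was not tested. These lists were added after the values were seen. PCNA and CDCA7, the latter named only for this overlap, are also among the DNA methylation cofactors above, so that list and the S phase list share genes.

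The genes whose pattern over the 4 libraries was nearest to that of UHRF1 were sought among the 10560 genes that averaged 10 CPM or more, by Euclidean distance between centred log2 CPM values. They were KIAA1614 (distance 0.033), TULP3 (0.053), CERKL (0.075), STX3 (0.079) and PDE5A (0.084), whose log2 fold changes ran from -1.87 to -1.77. With 4 libraries in 2 groups this likeness is mostly a like fold change. CERKL overlaps NEUROD1 on the same strand, so its counts are uncertain.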

How the data were processed

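Poly(A) RNA of IMR-32 cells was sequenced in 2 shControl and 2 shNeuroD1 libraries, grouped by the sample titles. A table of raw counts, deposited by the authors, gave the read pairs that HTSeq assigned to each of 60612 Ensembl genes. Per the labels' processing notes, cutadapt 1.9.1, HISAT2 2.0.1, HTSeq 0.6.1, DESeq2 and hg38 were used. The use of strand in counting is not given in the sources used here. The authors also deposited FPKM values of transcript starts, ends and splicing events for each library, which list values above 0 only. Columns with the authors' own fold changes and p-values were not used.

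From these counts, edgeR 4.0.16 (R 4.3.3) was used to compare shNeuroD1 with shControl. The filter filterByExpr with a minimum count of 10 kept 17537 genes, scaling was by TMM, and the two-sided quasi-likelihood F test was adjusted by Benjamini-Hochberg over those genes. A standard error is the size of the log2 fold change divided by the square root of F. Exon lengths, overlaps and positions came from GENCODE 29 on GRCh38, and promoters from RefSeq on GRCh38.p14, with which the positions of the files were set side by side. Alternatives were DESeq2 size factors, library size alone, no filter, a filter at a mean of 1 CPM, DESeq2 1.42.0, glmTreat, the replicate number as a block, limma 3.58.1 on log2(FPKM + 1) and log2(FPKM + 0.1) for 10084 genes, and leaving out each library. Cell cycle lists (S phase, G2/M) were those of Seurat 5.3.0.

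Genes named are the 10 members, NEUROD1, genes overlapping a member, the 5 genes nearest to the member with the largest fold change and, per list, genes past both thresholds (adjusted p under 0.05 and a change beyond 1) or else the largest change in each direction. Members and lists were chosen with earlier results of these data known.

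Replicates differed by more than sampling noise (chi-square per degree of freedom 2.53 in shControl and 1.56 in shNeuroD1), so each library counts as 1 sample. With 14665210 to 16482463 counts per library, precision was lowest for genes with few counts. Some marker genes, and sums over the lists that hold them, are not reported here.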

Additional observations from a re-analysis of the deposited data

How the results depend on the processing

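Over the alternatives, 105 refitted member fold changes kept their direction and their side of an adjusted p of 0.05, 7 lost significance and 2 reversed. The exceptions came from the FPKM fits and from 1 library. When FPKM was fitted with limma (pseudocounts 1 and 0.1), 7 members had a value, since DNMT1, EED and TET1 lie in merged loci; there 3 members were lower (EZH2, UHRF1 and HELLS) and 0 higher in both fits. EZH1 gave 0.46 and 0.49 (adjusted p = 0.14 and 0.15), SUZ12 -0.68 and -0.73 (0.065 and 0.069), DNMT3A 0.16 and 0.17 (0.37 and 0.37), and DNMT3B reversed to 0.011 and 0.015. Of 79 context genes in these fits, 5 and 4 were lower and 3 and 3 higher. The cause was not tested. TET1 missed the threshold without shControl replicate 2 (-0.21).

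Library size alone moved the median of all genes to 0.12, and fold changes are read against that shift. Under it, and in both FPKM fits, the median of genes that remove Polycomb marks was 0.0048, 0.0040 and 0.0052. The median of imprinted genes ran from 0.33 to 0.62 when a library was left out, and that of 3 tested germline genes turned to 0.44 without shControl replicate 2. With the replicate block, 7 members were lower, 2 higher, and 54 context genes lower and 21 higher. Context counts were 41 and 30 with library size alone, 42 and 19 in DESeq2, and 39 to 44 lower and 18 to 21 higher when a library was left out. With the block UHRF1 gave -1.85. Same-numbered libraries deviated from their group means with a correlation of 0.021 over 10500 genes, and the numbers are not taken as pairs. A fit without 1 library assumes that the lone library varies like the others.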
